A study of Mus musculus with 6 samples.

Results

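The genes described here are 57 transcription factors that specify cell lineages in the embryo and lie outside the Hox clusters, chosen by name from 12 factor families. A gene was taken as measured when either HiCap replicate named it at a captured promoter, which held for 50 of the 57, among 21202 genes named in all. The interactions of captured promoters were read by HiCap, a Hi-C protocol with an added promoter capture step, in 2 biological replicates of mESCs (mouse embryonic stem cells) of the R1 line. Hi-C without capture was recorded as 2 further samples, also labelled as replicates, which the authors pooled into a single list. Whether these came from the same cells as the HiCap libraries is not stated in the sources used here. All samples were untreated, undifferentiated cells kept in serum with LIF on gelatin, fixed with 1% formaldehyde for 10 min and cut with the 4-cutter MboI for 4 h, so every value comes from a single established cell line with no contrast of genotype or treatment. The 2 Capture-C replicates of the series were not analysed here.

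Lineage factors bind DNA through homeodomains, HMG boxes, forkhead, T-box, paired, zinc finger or basic helix-loop-helix domains and switch on the programs of neural, cardiac, endodermal or limb cells. In mESCs most of them are silent or barely transcribed, and many of their promoters lie in CpG islands, which are stretches of DNA that have kept the CpG dinucleotide lost from most of the mammalian genome. Silent developmental genes of this kind are known as classic targets of the Polycomb group proteins. A HiCap pair is a captured promoter fragment joined to a distal region, which is usually a single MboI fragment on the same chromosome. The lists give positions on mm9 and no read numbers, and a called pair is defined here as the same promoter fragment with the same distal region in both HiCap replicates.

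At least 1 called pair was found for 32 of the 50 factors (64%, exact 95% interval 49.2 to 77.1), against a background of 60.7% over all listed genes. Intervals here and below cover counting error only, and pairs that share a fragment are not independent. The factors had few called pairs each. Their mean was 2.04 against 4.47 over all genes, with a median of 1 in both, and 7 factors (14%) had 5 or more, against 26.6% of all genes. Of 165 listed genes of the same families that are not in the set, 102 (61.8%) had a call, with a mean of 3.67 called pairs. The share of factors with a call was therefore near the background, and the mean number of pairs per factor was below it.

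The distal regions of the factors differed from those of other genes in their base sequence. Of 99 called pairs with a distal region of 200 bp or more, 22 (22.2%, exact 95% interval 14.5 to 31.7) joined a CpG-rich region, against a background of 2.33% over all genes. With the pairs of replicate 1 or replicate 2 alone the share fell to 8.79 or 5.94%, against 1.44 or 1.35% over all genes. CpG-rich means that the observed number of CpG was at least 0.6 of that predicted from the C and G content of the fragment. The median ratio was 0.367 in the factors' regions and 0.2 over all genes, while the G+C content was 49.7% and 47.2%. The sequences below are from the mm9 reference genome, not from the R1 line, and read 5′ to 3′ on the plus strand with each CpG in capitals. They show the range among the regions on which the results turn. Fragments up to 300 bp are shown whole with both MboI sites (gatc), and longer ones by the 200 bases outside exons that hold the most CpG.
Sox17, region 75.4 kb upstream, listed in Hi-C, chr1:4561777-4561976: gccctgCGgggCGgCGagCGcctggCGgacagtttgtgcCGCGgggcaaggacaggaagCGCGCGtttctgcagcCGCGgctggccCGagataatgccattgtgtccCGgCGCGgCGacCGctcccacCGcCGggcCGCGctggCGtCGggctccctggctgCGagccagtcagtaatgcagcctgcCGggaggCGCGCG
Otx1, region 8.09 kb downstream, listed in Hi-C, chr11:21893650-21893849: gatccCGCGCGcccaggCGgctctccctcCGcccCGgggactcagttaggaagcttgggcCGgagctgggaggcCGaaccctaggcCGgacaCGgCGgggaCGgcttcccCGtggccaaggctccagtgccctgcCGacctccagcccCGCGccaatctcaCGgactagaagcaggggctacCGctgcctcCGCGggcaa
Hand2, region 7.6 kb upstream, listed in Hi-C, chr8:59791561-59791798: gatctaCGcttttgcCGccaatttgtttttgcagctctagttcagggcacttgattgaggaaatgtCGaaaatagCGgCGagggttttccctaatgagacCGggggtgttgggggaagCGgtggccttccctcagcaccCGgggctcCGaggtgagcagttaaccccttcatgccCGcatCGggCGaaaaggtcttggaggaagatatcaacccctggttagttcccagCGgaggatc
Hand2, region 22.9 kb downstream, listed in Hi-C, chr8:59821965-59822164: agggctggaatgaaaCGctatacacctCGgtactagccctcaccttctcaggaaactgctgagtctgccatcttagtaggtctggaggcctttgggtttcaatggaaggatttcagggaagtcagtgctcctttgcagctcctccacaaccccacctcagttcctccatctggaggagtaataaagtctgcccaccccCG
Meis1, region 143 kb downstream, listed in Hi-C, chr11:18776624-18776823: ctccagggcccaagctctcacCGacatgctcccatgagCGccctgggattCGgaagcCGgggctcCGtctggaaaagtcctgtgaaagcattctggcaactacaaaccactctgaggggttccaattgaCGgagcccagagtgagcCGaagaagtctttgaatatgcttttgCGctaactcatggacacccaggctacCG
Pax2, region 30.4 kb upstream, shown for its CpG ratio and chosen after that was seen, chr19:44800664-44800863: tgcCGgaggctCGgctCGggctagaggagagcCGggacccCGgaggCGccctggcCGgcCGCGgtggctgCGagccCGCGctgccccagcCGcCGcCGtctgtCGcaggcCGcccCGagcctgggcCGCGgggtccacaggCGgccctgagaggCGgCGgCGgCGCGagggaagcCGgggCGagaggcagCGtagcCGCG
Evx2, region 97.5 kb upstream, shown for its repeated stretch, chr2:74594653-74594879: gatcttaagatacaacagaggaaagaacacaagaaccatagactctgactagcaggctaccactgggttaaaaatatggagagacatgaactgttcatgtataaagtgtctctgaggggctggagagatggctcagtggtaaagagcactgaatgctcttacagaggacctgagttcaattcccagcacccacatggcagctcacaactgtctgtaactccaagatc

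The 7 sequences ran from CpG islands to DNA with no CpG at all. The whole Sox17 fragment had 61 CpG in 991 bp and a ratio of 0.716, the Otx1 fragment 40 in 614 bp and 0.764, and the Pax2 fragment 49 in 712 bp and 0.907. The nearer Hand2 fragment had 13 CpG in 234 bp and a ratio of 0.731. The farther Hand2 fragment had 3 CpG in 488 bp and a ratio of 0.114, so both kinds were joined to the same promoter. The Meis1 fragment was between them at 0.412. The Evx2 fragment held no CpG, and its most frequent stretch of 20 bases occurred 1908 times on chromosome 2, both strands counted.

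**Figure D1:**
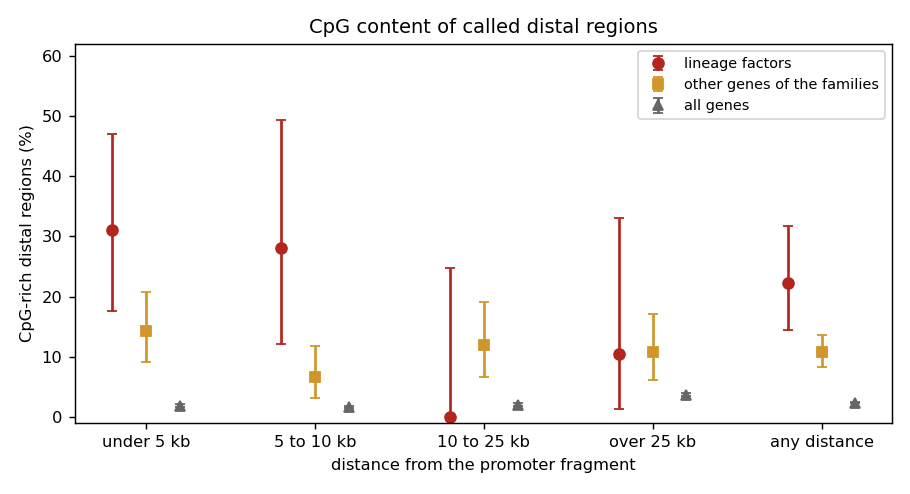
Share of called pairs whose distal region is CpG-rich (%, vertical axis) by distance from the promoter fragment (horizontal axis) for the lineage factors, the other genes of their families and all genes, over regions of 200 bp or more; bars are exact 95% binomial intervals. The factors stand at 31% under 5 kb and 28% from 5 to 10 kb, where all genes stand at 1.87 and 1.65%.

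The CpG-rich regions of the factors lay mostly within 10 kb of the promoter. Under 5 kb, 13 of 42 regions of the factors were CpG-rich (31%, interval 17.6 to 47.1), against 1.87% over all genes at that distance. From 5 to 10 kb it was 7 of 25 (28%) against 1.65%. From 10 to 25 kb none of 13 was, which allows up to 24.7%, and over 25 kb 2 of 19 were (10.5%, interval 1.3 to 33.1), against 3.64% over all genes. The last interval holds the value of all genes, so no difference was detectable there. The 2 distant regions were those of Sox17 and Pax2.

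Of the regions of the other family genes, 61 of 566 were CpG-rich (10.8%, interval 8.34 to 13.6). They stood at 14.2% under 5 kb and 6.54% from 5 to 10 kb, below the factors, but at 11.9% from 10 to 25 kb, where the factors had none, and at 10.7% over 25 kb, where the factors had 10.5%. Over all genes the share was close to the background for CpG-rich promoters too. With a promoter fragment of ratio 0.6 or more, 2.2% of all called pairs and 20.9% (14 of 67) of those of the factors joined a CpG-rich region. Regions inside the factor's own gene were CpG-rich in 13 of 31 pairs (41.9%), and those outside it in 9 of 68 (13.2%, interval 6.23 to 23.6). This split by own gene was not made over all genes. The 22 regions belonged to 15 of the 32 factors, and Sox17 and Otx1 had 4 each. Without these 2 genes the share was 14 of 79 (17.7%, interval 10 to 27.9), and the interval then overlapped that of the other family genes.

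The numbers of listed pairs differed widely among the factors and between the replicates. Replicate 1 held 637 pairs of the factors and replicate 2 held 913, with medians of 7.5 and 8.5 per factor, against 12 and 11 over all genes. Replicate 1 listed more pairs for 23 factors, replicate 2 for 24, and 3 had equal numbers. The rank correlation of the replicates over the 50 factors was 0.615 (Spearman, a description over genes that share 2 libraries), and 0.698 over all genes. The called pairs made up 16% of the factors' pairs in replicate 1 and 11.2% of those in replicate 2, against 19 and 17.1% over all genes.

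The replicates also differed in distance, for the factors as for all genes. The median distance of the factors' pairs was 12.8 kb in replicate 1 and 133 kb in replicate 2, and over all genes 19.8 and 101 kb. Pairs over 1 Mb numbered 2 in replicate 1 and 175 in replicate 2 (19.2%, against 19.4% over all genes). None of the factors' called pairs exceeded 1 Mb. Under 25 kb, 20.2% of the factors' pairs in replicate 1 and 31.4% of those in replicate 2 were called, against 25.3 and 44.6% over all genes. Over 100 kb it was 6.96 and 1.62%, against 7.36 and 2.16%.

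**Figure D2:**
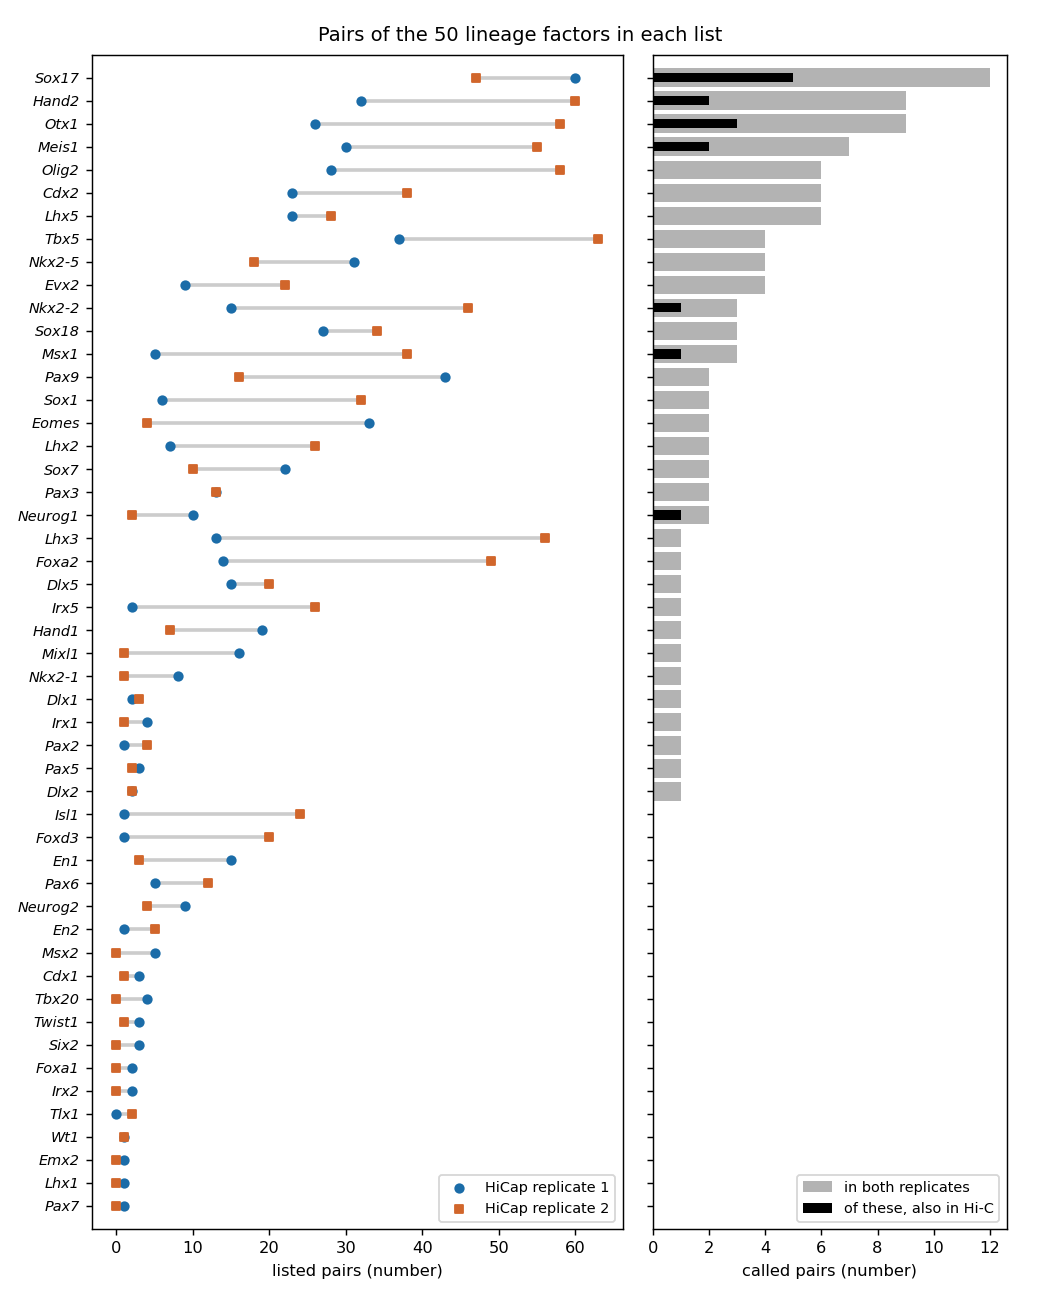
Number of listed pairs of each of the 50 factors in HiCap replicate 1 (circles) and replicate 2 (squares), left, and number of called pairs with those also in Hi-C in black, right; genes are ordered by called pairs. Sox17 leads with 12 called pairs, and the 18 factors at the bottom have none.

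The called pairs of the factors lay close to their promoters. Their median distance between fragment midpoints was 6.63 kb (quartiles 3.62 and 13.1), against 10.3 kb (5.12 and 25.8) over all genes and 8.48 kb over all isolated promoters. The other family genes had a median of 8.55 kb. At isolated promoters alone the medians were close, 5.82 kb for the factors and 6.25 kb for the other family genes. Under 5 kb there were 42 of 102 pairs (41.2%, interval 31.5 to 51.4), against 24.2% over all genes and 28.2% for the other family genes. At the other end, 8 pairs (7.84%, interval 3.45 to 14.9) exceeded 100 kb, against 6.31%. A call over 15 kb was found for 16 of the 50 factors (32%), against 41.3% of all listed genes. By annotation, 59 regions were intergenic, 27 overlapped an exon and 16 lay in introns, and 32 were in the body of the factor's own gene. Only regions of the factors were annotated, so these counts have no share over all genes beside them. Of the 100 pairs of genes with an annotated strand, 46 were upstream and 54 downstream.

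**Figure D3:**
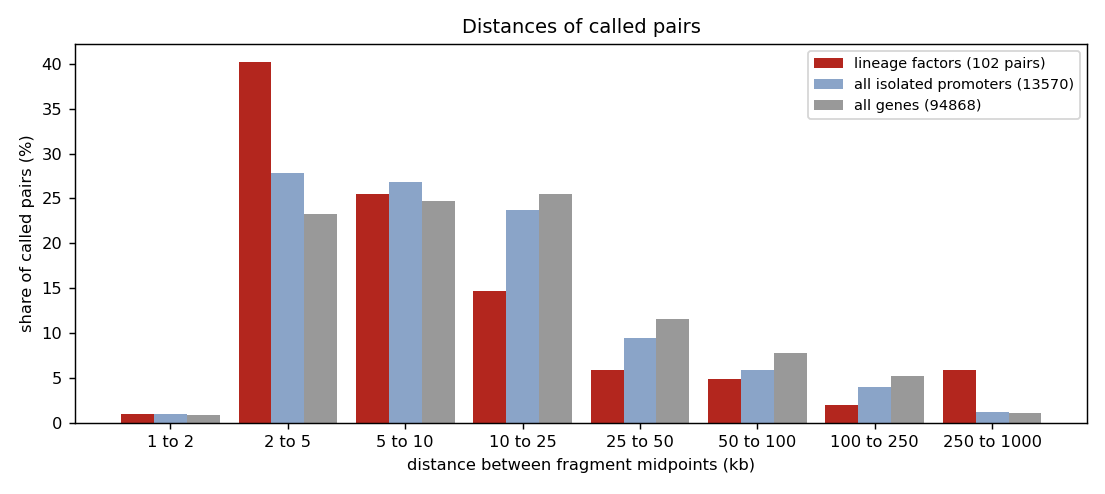
Share of called pairs (%, vertical axis) in classes of distance (kb, horizontal axis) for the factors, all isolated promoters and all genes. The factors have 40.2% of their pairs from 2 to 5 kb, where all genes have 23.3%.

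The 10 factors with the most called pairs held 67 of the 102 (65.7%). Sox17, an HMG box factor of endoderm and endothelium, had 60 pairs in replicate 1, 47 in replicate 2 and 10 in Hi-C, and 12 were called. Its promoter fragment was chr1:4486376-4486830, with no other captured gene within 50 kb. Of the called regions, 6 lay 2.62, 3.22, 3.52, 4.06, 4.74 and 6 kb downstream, all overlapping exons of Sox17, and 3 lay 2.29, 3.52 and 8.99 kb upstream. The nearest 4 of the downstream regions and the region 75.4 kb upstream were also in Hi-C. That distant region, chr1:4561488-4562479, was intergenic, had no other captured promoter between it and Sox17, and was called for no other gene.

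The last 2 regions of Sox17 lay 274 and 276 kb upstream and adjoined each other at Mrpl15, the gene of a mitochondrial ribosomal protein. The nearer was also called for Mrpl15, Lypla1 and Rgs20. The farther was called for Mrpl15 and Tcea1 among others. These 2 regions, chr1:4759713-4761441 and chr1:4761441-4763542, were the only called ones of Sox17 that other genes shared.

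Otx1, a homeodomain factor of the anterior brain, had 26 and 58 pairs in the replicates, 6 in Hi-C and 9 called. From its promoter fragment chr11:21901616-21902481 the called regions lay 3.31 kb upstream and 3.4 to 12.8 kb downstream, 6 of them in the gene itself. Those at 3.31 kb upstream and at 5.64 and 8.09 kb downstream were also in Hi-C. No region was called for another gene. All the called pairs of Otx1 were thus within 12.8 kb.

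Hand2, a basic helix-loop-helix factor of heart and limb, had 32 and 60 pairs, 11 in Hi-C and 9 called from chr8:59798766-59799794. There were 5 regions 2.05 to 7.6 kb upstream and 4 regions 13.2 to 22.9 kb downstream. The outermost on either side, chr8:59791560-59791794 and chr8:59821917-59822405, were the 2 found in Hi-C. The downstream ones at 13.2, 13.7 and 15.4 kb lay in the neighbouring transcript 5033428I22Rik. Its relative Hand1, which acts in heart and placenta, had 19 and 7 pairs and a single call 3.66 kb upstream.

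Meis1, a TALE homeodomain partner of Hox proteins, had 30 and 55 pairs, 3 in Hi-C and 7 called from chr11:18918890-18920625. Its regions lay 1.6, 5.64 and 21.9 kb upstream and 2.52, 3.6, 17.3 and 143 kb downstream. The regions at 3.6 and 143 kb were in Hi-C as well. The latter, chr11:18776473-18776926, was intergenic, was listed for no other gene in either replicate, and lay past 2 captured promoters of other genes. It was the only called pair over 100 kb of any factor that Hi-C also held.

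Olig2, which directs motor neuron and oligodendrocyte fate, had 28 and 58 pairs and 6 called. From chr16:91224683-91226006 these lay 2.57, 3.11 and 6.69 kb upstream and 3.72, 38.2 and 70.2 kb downstream. The region at 38.2 kb, near the related gene Olig1, was also called for Olig1. It was listed for 5 genes in replicate 1 and 8 in replicate 2. None of the 6 called pairs was in Hi-C, which listed 4 other pairs.

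Cdx2, a homeodomain factor of trophectoderm and hindgut, had 23 and 38 pairs and 6 called from chr5:148117607-148119018. The near regions lay 4.11 and 6.75 kb upstream and 3.87 and 7.6 kb downstream. The far ones lay 124 and 382 kb downstream (chr5:147993984-147994219 and chr5:147735937-147736942), the first with its nearest captured promoter at Gsx1, a homeobox gene of the brain, and the second at Gtf3a, which encodes a transcription factor of RNA polymerase III. They lay past 3 and 6 captured promoters of other genes, and neither was called for another gene. Evx2, next to the Hoxd genes, had 9 and 22 pairs and 4 called from chr2:74496782-74497823. The regions at 3.28 and 4.33 kb downstream were also called for Hoxd13, and that at 9.55 kb for no other gene. The region 97.5 kb upstream, chr2:74594652-74594875, was called for 5 genes, with Hoxd1 and Hoxd9 among them. It was listed for 9 genes in replicate 1 and 10 in replicate 2.

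Lhx5, a LIM homeodomain factor of the forebrain, had 23 and 28 pairs and 6 called from chr5:120880904-120881920. They lay 4.31 and 5.11 kb upstream, 3.61, 7.02 and 9.72 kb downstream, and 748 kb upstream at Tbx3, the longest called pair of any factor. The last region, chr5:120132296-120134288, overlapped an exon of Tbx3, a T-box gene of limb and heart. It was listed for 11 genes in replicate 1 and 12 in replicate 2, and called for 6, where the 99th percentile over regions was 6 and 5 genes. Replicate 2 also joined it to Tbx5 over 151 kb and to Msx1 over 81917 kb. The part of this wide sharing in the Lhx5 pair was not tested.

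Tbx5, the T-box gene of forelimb and heart, had 37 and 63 pairs, the most of any factor in replicate 2, and 4 called. From chr5:120284067-120284968 they lay 4.82, 9.25 and 28.7 kb upstream and 4.07 kb downstream. Nkx2-5, the homeodomain factor of the early heart, had 31 and 18 pairs and 4 called from chr17:26977647-26978844. They lay 9.68 and 44.2 kb upstream and 2.19 and 5.6 kb downstream. The region at 44.2 kb was also called for Itpr3, Bnip1 and Atp6v0e, and was listed for 9 genes in replicate 1 and 5 in replicate 2. Hi-C listed 11 pairs of Nkx2-5 and none of the called ones.

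**Figure D4:**
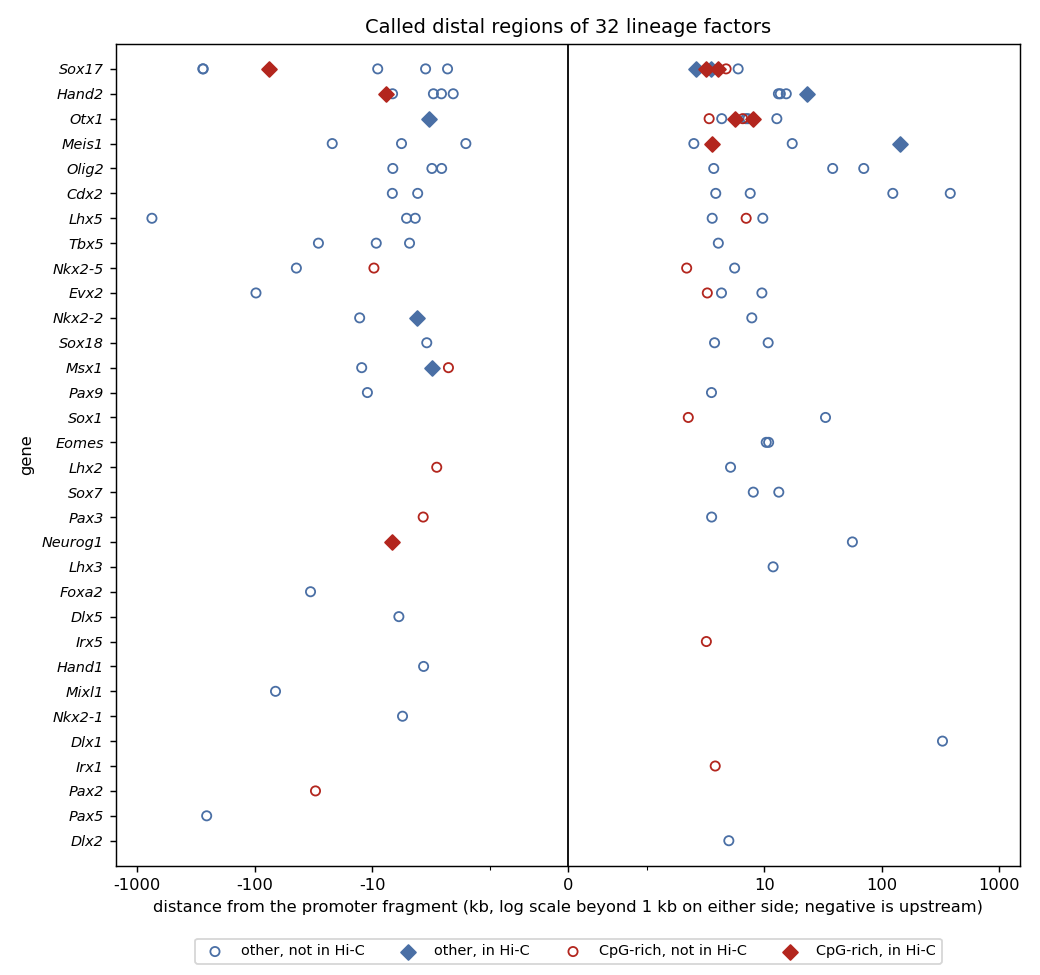
Distance of each called distal region from its promoter fragment (kb, horizontal axis, logarithmic beyond 1 kb on either side) for the 32 factors with a call. Negative distances are upstream, except for Sox1, whose strand was not annotated and whose distances follow the chromosome. Red regions are CpG-rich, blue ones are not or are under 200 bp, and filled diamonds are also in Hi-C. Most regions lie within 10 kb, and the filled diamonds beyond 50 kb are those of Sox17 and Meis1.

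Among the Sox genes all 4 had a call. Sox18, an endothelial factor, had 27 and 34 pairs and 3 called, at 3.44, 3.78 and 10.8 kb. Sox7, expressed in endoderm and vessels, had 22 and 10 pairs and 2 called, at 8.07 and 13.3 kb. Sox1, a marker of the neural plate, had 6 and 32 pairs and 2 called, at 2.26 and 33.2 kb. Of the 11 other listed Sox genes, 7 had a call.

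The Pax genes, paired-domain factors of eye, kidney, muscle and B cells, had 4 of 6 members with a call and at most 2 calls each. Pax9, of the pharyngeal pouches and teeth, had 43 and 16 pairs and 2 called, at 3.56 and 11 kb. Pax3, of neural crest and muscle precursors, had 13 pairs in each replicate and 2 called, at 3.57 and 3.69 kb, from a promoter fragment of only 44 bp. Pax2, of the kidney and midbrain, had 1 and 4 pairs, and the single call at 30.4 kb was shared with 1700039E22Rik. Its region was listed for 4 genes in replicate 1 and 6 in replicate 2. Pax5, the B-cell factor, had 3 and 2 pairs and a single call 256 kb upstream. The region of that call was listed for 2 genes in replicate 1 and 8 in replicate 2. Pax6, of the eye, with 5 and 12 pairs at 4 promoter fragments, and Pax7, of muscle stem cells, with 1 and 0, had none.

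The remaining homeodomain genes were mixed. Nkx2-2, of the ventral neural tube, had 15 and 46 pairs and 3 called from chr2:147011377-147012157. They lay 4.14 and 12.8 kb upstream and 7.84 kb downstream, and the nearest, chr2:147015543-147016278, was in Hi-C. Nkx2-1, of lung and thyroid, had 8 and 1 pairs, and the single pair of replicate 2 was the called one. Msx1, of craniofacial mesenchyme, had 5 and 38 pairs and 3 called from chr5:38215769-38216501, at 2.25, 3.09 and 12.3 kb upstream. Hi-C held that at 3.09 kb, chr5:38218948-38219494. Lhx2, of eye and forebrain, had 7 and 26 pairs and 2 called, whereas Lhx3, of the pituitary, had 13 and 56 and a single call. Dlx1, Dlx2 and Dlx5, of forebrain interneurons and branchial arches, had 1 each, and that of Dlx1 lay 328 kb away in Itga6, an integrin gene. That region, chr2:71695126-71696896, was also called for Itga6, Pdk1 and Rapgef4, and listed for 10 genes in replicate 1 and 11 in replicate 2. Mixl1, of the primitive streak, had 16 and 1 pairs, and its call 66.5 kb upstream was shared with Acbd3 and Lin9. The region was listed for 18 genes in replicate 1 and 8 in replicate 2. Irx1 and Irx5, of the Iroquois group, had 1 called pair each, at 3.83 and 3.22 kb.

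Of the remaining factors, Eomes, a T-box gene of trophoblast and endoderm, had 33 pairs in replicate 1 and 4 in replicate 2, with 2 called at 10.4 and 10.9 kb in adjoining regions. Neurog1, a proneural factor, had 10 and 2 pairs, and both pairs of replicate 2 were called, from chr13:56353514-56353781. That at 6.86 kb upstream, chr13:56360130-56360891, was in Hi-C and was also called for Pitx1, and the other lay 56.2 kb downstream. Foxa2, the endoderm pioneer factor, had 14 and 49 pairs and a single call 33.5 kb upstream.

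The 18 factors without a call were Pax6, Pax7, Foxa1, Foxd3, Tbx20, Cdx1, Lhx1, Isl1, Neurog2, Twist1, Emx2, En1, En2, Tlx1, Msx2, Irx2, Six2 and Wt1. They also had few listed pairs, with medians of 2 in replicate 1 and 1 in replicate 2, against 15 and 24 for the factors with a call. Of the 18, 9 were named in both replicates and 9 in only 1 of them. Over all genes 8335 had no call, and of these 1166 were absent from replicate 1 and 2652 from replicate 2. Isl1, of motor neurons and heart, had 1 pair in replicate 1 and 24 in replicate 2, and Foxd3, of neural crest and pluripotent cells, 1 and 20. En1, of the midbrain, had 15 and 3. In 3 of the 18, regions of the 2 replicates came within 1 kb of each other without being the same. This count and the medians above were not computed over all genes without a call. With so few pairs, a lack of calls does not show a lack of contacts.

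The other 7 factors, Tbx2, Evx1, Gsc, Nkx6-1, Neurod1, Tlx3 and Irx3, were not named in the HiCap lists used here. For 5 of them a captured fragment within 2 kb of the start site carried the name of another transcript. That at Irx3 was named AC151834.1 on 2 fragments, the first with 16 and 66 pairs and 4 called and the second with 23 and 97 pairs and 7 called. The fragments at Evx1, Neurod1 and Tlx3 had 1 called pair each and that at Tbx2 had none. These values were kept out of all counts. The called region of Irx5 was also called for AC151834.1, so that the region was joined to fragments at both Irx5 and Irx3.

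The promoters of the factors were next grouped by how many captured promoters of other genes lay near them. A promoter fragment was called isolated with no captured promoter of another gene within 50 kb, crowded with 5 or more other genes, and between with 1 to 4. Of the 60 promoter fragments of the factors, 26 (43.3%) were isolated, against 25.1% of all. A call was found at 11 of these 26 (42.3%, interval 23.4 to 63.1), against 39.2% of all isolated promoters, and at 20 of 33 between (60.6%, interval 42.1 to 77.1), against 52.6%. Only the promoter of Evx2 was crowded, and it had calls, as did 70.2% of all crowded promoters. The intervals of the isolated and between promoters overlap, so no difference between these 2 classes was detectable. Fragments of the same gene are not independent. All 4 of Pax6 were isolated and uncalled, and Pax5 and Pax9 each had an uncalled isolated fragment beside a called one. Counted as crowded from 3 other genes, 7 of 7 crowded promoters of the factors had a call, against 64.5% of all such promoters. Sox17, Otx1, Hand2, Tbx5 and Nkx2-5 were isolated and still among the 10 with the most calls.

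**Figure D5:**
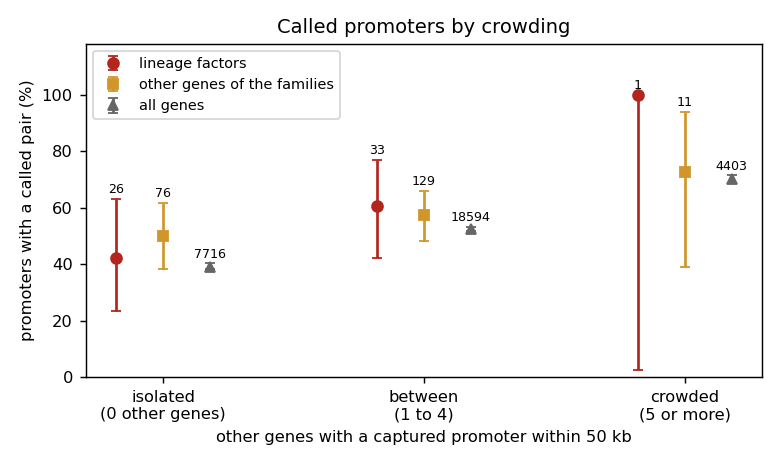
Share of promoter fragments with a called pair (%, vertical axis) by the number of other genes with a captured promoter within 50 kb, for the factors, the other genes of their families and all genes. Bars are exact 95% binomial intervals and the numbers above them count the promoters. The factors' isolated promoters stand at 42.3% and those of all genes at 39.2%.

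Most distal regions of the factors belonged to a single gene. Of the 102, 86 were called for no other gene, and 16 (15.7%) were shared, against 33.5% of all called pairs and 8.05% of those of isolated promoters. For 82 of the pairs the nearest captured promoter was the factor's own, and 90 passed no captured promoter of another gene. Both of these counts were made for the factors only, so they do not show a trait particular to the factors.

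Hi-C listed 151 pairs at 39 of the 50 factors (78%, against 76.4% of all listed genes). It held 15 of the 102 called pairs (14.7%, interval 8.47 to 23.1), against a background of 12.5% over all genes, at 7 factors: Sox17, Otx1, Hand2, Meis1, Nkx2-2, Msx1 and Neurog1. Under 5 kb it held 8 of 42 (19%), against 20.7% over all genes. Of the 15 regions, 8 were CpG-rich (53.3%, interval 26.6 to 78.7), against 14 of the 84 others of 200 bp or more (16.7%, interval 9.42 to 26.4), and 5 of the 8 were at Sox17 and Otx1. Whether regions listed in Hi-C are richer in CpG over all genes was not tested. Of the 151 Hi-C pairs, 94 (62.3%) were in neither HiCap list, against 59.8% over all genes, and 9.93% were in both, against 16.1%. Hi-C also listed pairs at 13 of the 18 factors without a call, a share that was not computed over all genes without a call. The minimum of read pairs behind the Hi-C list is not given in the sources used here.

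Among pairs taken from the promoters of the 50 factors, contacts with other factor genes were few. Only the Lhx5 pair at Tbx3 was called within the limit of 5 kb used here. Pairs taken from the promoters of other genes were not counted. Among those, the Evx2 regions at 3.28 and 4.33 kb were called for Hoxd13, and the Irx5 region for a fragment at Irx3. A distal region within 5 kb of the start site of another factor, of these families or of the Hox clusters, was found in 9 of 637 pairs in replicate 1 (1.41%, background 0.285%) and in 14 of 913 in replicate 2 (1.53%, background 0.27%). Among the called pairs it was 1 of 102 (0.98%, background 0.384%), and in Hi-C 3 of 151 (1.99%, background 0.286%). Those of Hi-C joined Dlx1 to regions at Dlx2 and Six2 to a region at Six3. The list of start sites is rich in neighbours of these genes, such as Hoxd13 at Evx2 and Olig1 at Olig2. Regions at Hoxd13 were joined to Evx2 in both replicates, at different fragments. Pax9 was joined to the Foxa1 gene over 855 kb in replicate 1 and, at another fragment, over 847 kb in replicate 2. Foxa2 was joined in replicate 2 to 2 regions at Nkx2-2, 848 and 858 kb away, and Nkx2-1 in replicate 1 to a region at Pax9 163 kb away.

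Short motifs were also searched for in the called regions. Within the central 300 bases, TAATTA, a core of homeodomain sites, was found in 6 of 102 regions (5.88%) against 6.7% of all, CATTGT, a core of Sox sites, in 11 (10.8%) against 14.4%, and the octamer ATGCAAAT in 2 (1.96%) against 1.41%, with both strands searched. A match of letters is no evidence of binding, and no match says nothing of the factor.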

How the data were processed

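The files the authors deposited hold positions in mm9 coordinates and neither scores nor counts. An entry pairs a captured promoter, its bounds and gene, with the bounds of its distal partner. According to their methods, the authors aligned each read end separately with HiCUP and Bowtie 0.12.7, dropped multi-mapping reads, duplicates and pairs closer than 1 kb, and asked for 3 or more read pairs per replicate. The lists keep no read numbers, so the depth behind a pair is unknown and no test across genes was fitted. Called pairs were computed from the 2 replicate lists. Genes and exons came from GENCODE for NCBIM37, which is mm9, without pseudogenes; Sox1 was not matched there. The members and lists were chosen with earlier results of these data known. Every member is named; distances are given for all called pairs, or their range, of the 10 members with the most calls, of those with a called pair in Hi-C and for the 5 longest pairs, with the positions of their promoters and of selected regions. The CpG comparison, its limit of 0.6 and the Pax2 region were chosen after the data were seen. The pairing of the replicate lists was tested on simulated data. Python 3.11.15, pandas 2.3.3, NumPy 2.4.6, SciPy 1.17.1 and Matplotlib 3.10.9 were used.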

Additional observations from a re-analysis of the deposited data

How the results depend on the processing

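With the authors' combined list in place of the 2 replicate lists, every count and share tried gave the same value. No paired analysis was possible because the lists hold positions only and no result comes from a test between groups. With replicate 1 or replicate 2 alone, the factors with a listed pair ranged from 42 to 49, the mean pairs per factor from 12.7 to 18.3, the median distance from 12.8 to 133 kb, the share in Hi-C from 2.96 to 7.06%, the isolated promoters with a pair from 73.1 to 88.5%, the CpG-rich regions from 5.94 to 8.79% (1.35 and 1.44% of the pairs of all genes) and the other family genes from 142 to 162. Of all 21202 listed genes, replicate 1 named 20036 and replicate 2 named 18550, and the share of isolated promoters with a pair in a single replicate was not computed over all genes. Counting distal regions of the replicates within 1 kb as the same gave a mean of 5.52 pairs and 10.5% in Hi-C. The CpG-rich share was then 14.5%, against 1.65% of the pairs of all genes. The mean and the Hi-C share were not computed over all genes in this setting. The mean of 4.47 over all genes is for identical regions only. In a separate setting, 41.2% of the called pairs had a Hi-C region within 1 kb of theirs. No share over all genes was computed for that looser match. Over 15 kb, 16 of 50 factors (32%), 60 of 165 other family genes (36.4%) and 41.3% of all listed genes had a call. The factors then had a mean of 0.46 pairs, a median distance of 66.5 kb and 9.09% CpG-rich regions (3.22% of the pairs of all genes). With promoters of 3 or more other genes counted as crowded, 7 of 7 crowded promoters of the factors had a call (64.5% of all), against 11 of 26 isolated ones. Windows of 25 and 100 kb gave 48.6% (18 of 37) and 46.2% (6 of 13) of isolated promoters with a call, against 43.2 and 35.3% of all isolated promoters. A CpG ratio of 0.5 gave 33.3% (4.4% over all genes), and 0.75 gave 11.1% (0.804%). The alternatives for CpG content and the other family genes, and those of a single replicate for isolated promoters, were chosen after seeing the data. Only 2 HiCap libraries were analysed, and a pair below the minimum of reads in either is missing here.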
